A study of Homo sapiens and Mus musculus with 29 samples.

Results

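The genes described here make, recycle or spend nicotinamide adenine dinucleotide (NAD), and they were followed in tumors and metastases grown from HPAF-II, an established human cell line of pancreatic ductal adenocarcinoma (PDAC). They are 10 of the 58719 genes of the expression table and were found by their symbols: BST1, CD38, NMNAT1, NMNAT2, NMNAT3, NAMPT, NAPRT, NADSYN1, QPRT and NNMT. BST1 and NMNAT2 were chosen by their measured RPKM changes between these groups of tumors, so their values are given as a description and no test of them is reported. The other 8 were listed for their role in the pathway, though with earlier results of these data known.

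NAD is both an electron carrier and a substrate that some enzymes split, so that it has to be remade all the time. Most tissues remake it by salvage of nicotinamide, through NAMPT and then an NMNAT enzyme. Cells that express NAPRT can start from nicotinic acid instead, and cells that express QPRT from quinolinic acid, a product of tryptophan; both of these routes end with NADSYN1. BST1 and CD38 hydrolyze NAD at the cell surface and release nicotinamide, and NNMT methylates nicotinamide, which takes it out of salvage. Pancreatic cancer cells that lack NAPRT cannot use nicotinic acid and depend on the other routes.

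HPAF-II cells were injected into the pancreas of NSG mice about 8 weeks old, which lack functional lymphocytes but keep their own stroma, vessels and myeloid cells. All cells had gone through the CRISPR procedure, and the controls (labeled Cas-9-EV) carried an empty vector. Cells labeled HNF4G-KO were a pool of 3 clones with heterozygotic frameshift mutations in HNF4G, also with the empty vector. FOXA1-OE cells (labeled Cas-9-FOXA1) carried a lentiviral FOXA1, and HNF4G-KO + FOXA1-OE cells carried both changes. There were 3 control tumors, 3 FOXA1-OE tumors, 4 HNF4G-KO tumors with 2 metastases, and 5 HNF4G-KO + FOXA1-OE tumors with 4 metastases. In the last group tumors 2 and 3 came from the same mouse, as did metastases 1 and 2, so that tumors stood for 4 mice and metastases for 3. Both HNF4G-KO metastases were peritoneal and came from the mice of tumors 2 and 4. Of those labeled HNF4G-KO + FOXA1-OE, metastasis 1 was from the spleen, 2 and 3 from peritoneal fat and 4 from the peritoneum.

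Values are RPKM, reads scaled by gene length and library size. The length used, worked out from the values, ran from 2919 bases for NNMT to 16263 for NADSYN1 among the members. Where the transcripts present are shorter than that length, RPKM understates a gene, so comparisons between genes are approximate. Depth, worked out from the steps between RPKM values, was 33.1 to 69.6 M reads per library with a median of 54.5 M. HNF4G mRNA was 2.48 to 3.47 RPKM in control tumors and 5.72 to 8.42 RPKM in tumors labeled HNF4G-KO, which is the opposite direction to the label, and small frameshifts cannot be seen in values of whole genes. FOXA1 was 0.519 to 0.932 RPKM in control tumors and 6.32, 8.18 and 0.763 RPKM in FOXA1-OE tumors 1, 2 and 3, so tumor 3 was within the control range. It was 4.65 to 23.1 RPKM in the tumors labeled HNF4G-KO + FOXA1-OE but 0.535, 17.9, 1.296 and 1.55 RPKM in metastases 1 to 4 of that label, so that 3 of these 4 had no more FOXA1 than the HNF4G-KO tumors, which had up to 1.87 RPKM. The label is kept for these metastases as a name of the injected cells. The 7 epithelial markers summed to 2941 to 5536 RPKM in every library, while the 5 endothelial markers summed to at most 1.57 RPKM. The 13 host stroma markers ranged from 38.2 to 435 RPKM in sum. The 9 host pancreas markers summed to 467 RPKM in control tumor 2 and to at most 35.4 RPKM in any other library. The 3 hepatocyte markers summed to 14.5 RPKM in HNF4G-KO + FOXA1-OE tumor 5 and to at most 0.648 RPKM in any other library. Of the primary tumors 3 stood apart by MT-TC, a mitochondrial tRNA gene: FOXA1-OE tumor 3 at 50358 RPKM and HNF4G-KO + FOXA1-OE tumors 4 and 5 at 74871 and 39882 RPKM, against at most 17164 RPKM in the other libraries. Differences of the members that involve FOXA1-OE or HNF4G-KO + FOXA1-OE tumors include them unless stated. The values without them are given for some of these differences, not for all.

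By mean RPKM, NAPRT was the highest of the 10 genes in all 6 groups and CD38 the lowest in 3 of 6. In control tumors the means over mice were 86.5 ± 14.4 RPKM (SD, n = 3) for NAPRT, 12.2 ± 2.30 for NAMPT, 5.33 ± 0.689 for NADSYN1 and 4.40 ± 1.45 for QPRT. Next came NMNAT1 at 1.33 ± 0.165 RPKM, BST1 at 0.879 ± 0.201, NMNAT3 at 0.745 ± 0.127, NMNAT2 at 0.189 ± 0.117 and CD38 at 0.0614 ± 0.0699. NNMT had no single place in this order, since its 3 control values were 3.42, 3.45 and 19.99 RPKM. Neighbors in the order whose ranges overlapped were NADSYN1 with QPRT, BST1 with NMNAT3, and NMNAT2 with CD38.

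**Figure D1:**
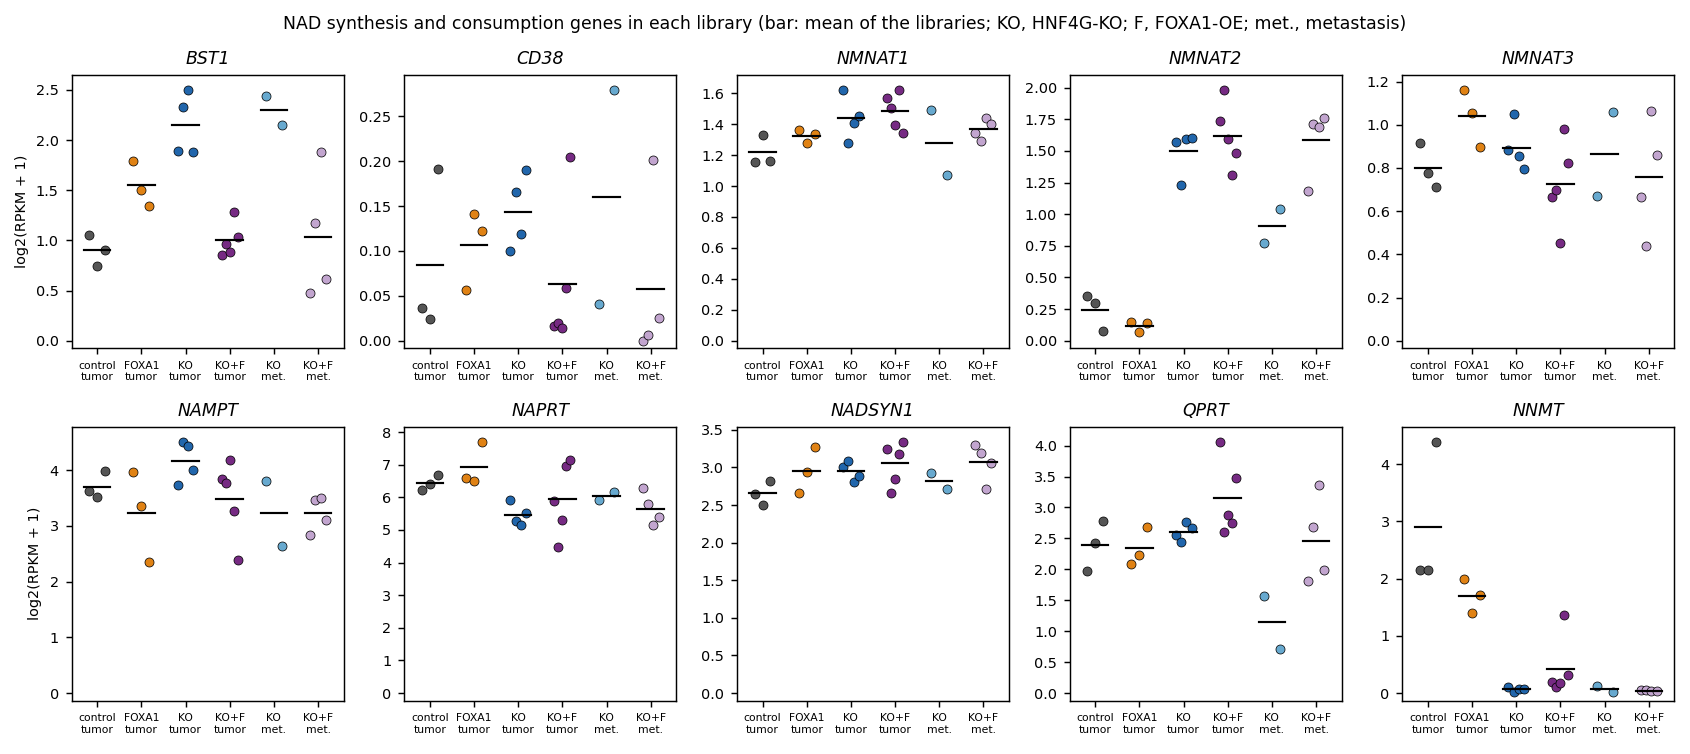
Each panel shows 1 gene and each point 1 library, as log2(RPKM + 1) on the vertical axis, with the mean of the libraries of a group as a bar; the vertical scale differs between panels and is linear in log2 units. NMNAT2 is low in control and FOXA1-OE tumors, NNMT is low in all libraries labeled HNF4G-KO but 1 tumor with FOXA1-OE at 1.57 RPKM, and BST1 is highest with HNF4G-KO and no FOXA1-OE, in tumors as in metastases.

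Sequence is shown for NMNAT2 because its level was higher in all tumors labeled HNF4G-KO, with or without FOXA1-OE, than in the others; NNMT was lower in all of them, but has no window in the table used. The RefSeq promoter table (GRCh38.p14) held 10 windows for 7 of the members, and BST1, NNMT and NAPRT had none in it. NMNAT2 has 2 annotated starts, and the 250 bases before each, on the minus strand of chromosome 1, are printed in 5′ to 3′ direction; the first is chr1:183418381-183418630 and the second, within the gene, chr1:183304875-183305124. Capitals mark the only match to the letters searched.

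NMNAT2 first start: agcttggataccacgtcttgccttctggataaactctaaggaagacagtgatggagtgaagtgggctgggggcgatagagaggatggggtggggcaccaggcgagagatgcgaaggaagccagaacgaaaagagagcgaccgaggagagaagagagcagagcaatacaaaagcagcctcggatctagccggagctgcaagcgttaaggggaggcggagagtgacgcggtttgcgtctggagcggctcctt
NMNAT2 second start: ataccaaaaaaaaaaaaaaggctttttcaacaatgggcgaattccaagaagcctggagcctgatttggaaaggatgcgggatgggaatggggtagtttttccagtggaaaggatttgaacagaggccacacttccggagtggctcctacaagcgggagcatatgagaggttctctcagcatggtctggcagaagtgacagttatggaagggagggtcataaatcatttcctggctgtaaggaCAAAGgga

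The letters searched on both strands were 2 forms of the site read by HNF4 factors, CAAAGTCCA and CAAAGGTCA, their shared letters CAAAG, and 2 forms read by FOXA factors, TGTTTAC and TGTTTGC. Neither window of NMNAT2 held a full HNF4 or FOXA form. CAAAG was in the second window at positions -8 to -4, and 42.1% of the 35116 windows in the table held it. Among the other members, TGTTTGC was found on the opposite strand of both overlapping NMNAT3 windows, which is 1 place counted from 2 starts; 3.23% of all windows held it. No other member window held any of these letters.

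NMNAT2, the NMNAT enzyme of the Golgi and cytosol that is best known from axons, lies at chr1:183248237-183418380 on the minus strand. Its RPKM values were 0.280, 0.231 and 0.0566 in control tumors 1 to 3, and 0.108, 0.0491 and 0.0989 in FOXA1-OE tumors. In tumors labeled HNF4G-KO they were 1.97, 1.34, 2.02 and 2.04, and in tumors labeled HNF4G-KO + FOXA1-OE 2.33, 2.96, 2.01, 1.48 and 1.79. Every tumor labeled HNF4G-KO, with or without FOXA1-OE, was therefore above every control and FOXA1-OE tumor, while the groups with and without FOXA1-OE overlapped within each pair. On the log2(RPKM + 1) scale the difference from control was 1.25 (SE 0.15) for HNF4G-KO and 1.33 (SE 0.15) for HNF4G-KO + FOXA1-OE, while HNF4G-KO + FOXA1-OE exceeded FOXA1-OE by 1.46 (SE 0.15). Adding 1 to values this low understates the change: with a pseudocount of 0.1 the differences of NMNAT2 were 2.83, 2.94 and 3.50. Without the 3 libraries high in MT-TC the last 2 comparisons gave 1.52 and 1.65 at a pseudocount of 1.

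Between FOXA1-OE and control tumors, NMNAT2 differed by -0.13 (SE 0.17) on the same scale. Between HNF4G-KO + FOXA1-OE and HNF4G-KO tumors the difference was 0.08 (SE 0.14), which became -0.21 when RPKM were rescaled to the same sum, a scaling that moved the median of all genes by -0.37 in this comparison. NMNAT2 reached a mean of 1 RPKM over the tumors only through the groups labeled HNF4G-KO. In the metastases NMNAT2 was 0.7103 and 1.06 RPKM for HNF4G-KO, both below all 4 tumors of that label, and 1.28, 2.28, 2.23 and 2.38 RPKM for HNF4G-KO + FOXA1-OE, within or below the range of its tumors. The order of the group means was FOXA1-OE, control, HNF4G-KO metastases, HNF4G-KO tumors, HNF4G-KO + FOXA1-OE tumors and HNF4G-KO + FOXA1-OE metastases, and the last 3 overlapped.

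BST1, a glycosylphosphatidylinositol-anchored NAD hydrolase also known as CD157, lies at chr4:15703065-15738313 on the plus strand, next to its paralog CD38. Control tumors had 1.08, 0.678 and 0.878 RPKM of BST1 and FOXA1-OE tumors 2.45, 1.84 and 1.55 RPKM. Tumors labeled HNF4G-KO had 2.72, 4.02, 4.67 and 2.68 RPKM, while those labeled HNF4G-KO + FOXA1-OE had 0.814, 0.955, 0.852, 1.43 and 1.05 RPKM. FOXA1-OE tumors were thus all above the controls where HNF4G was unedited, whereas with HNF4G-KO the tumors with FOXA1-OE were all below those without it. Among the former was FOXA1-OE tumor 3, with BST1 at 1.55 RPKM, though its FOXA1 of 0.763 RPKM was within the control range. Only the controls and the HNF4G-KO + FOXA1-OE tumors overlapped in BST1.

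In log2(RPKM + 1), BST1 differed from control by 1.25 (SE 0.18) in tumors labeled HNF4G-KO, by 0.64 (SE 0.20) in FOXA1-OE tumors and by 0.12 (SE 0.18) in HNF4G-KO + FOXA1-OE tumors. Between HNF4G-KO + FOXA1-OE and HNF4G-KO tumors the difference was -1.13 (SE 0.17), and between HNF4G-KO + FOXA1-OE and FOXA1-OE tumors -0.52 (SE 0.18). The FOXA1-OE difference with HNF4G-KO minus the one without it was -1.77 (SE 0.26), and -2.002 without the 3 libraries high in MT-TC. Without them BST1 differed by 0.74 between FOXA1-OE and control tumors, by -1.26 between HNF4G-KO + FOXA1-OE and HNF4G-KO tumors and by -0.75 between HNF4G-KO + FOXA1-OE and FOXA1-OE tumors. These comparisons share samples with each other. BST1 was 4.43 and 3.45 RPKM in HNF4G-KO metastases, within the range of their tumors, and 0.390, 1.26, 2.68 and 0.533 RPKM in HNF4G-KO + FOXA1-OE metastases, where metastasis 3, with FOXA1 at 1.296 RPKM, stood above all 5 tumors. The summed host stroma markers were 225 RPKM in metastasis 3, and 222 RPKM in metastasis 4, where BST1 was 0.533 RPKM. The part of host cells in BST1 was not tested.

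The genes whose log2(RPKM + 1) ran most like that of BST1 over the 14 mice with primary tumors, among 14269 genes tested, were ADGRL3 (Pearson r = 0.95), FLRT3 (r = 0.95) and CFAP43 (r = 0.93). For NMNAT2 they were ENSG00000232524 (r = 0.98) and ENSG00000255306 (r = 0.98), which had no symbol in the name table, and EPB41L1 (r = 0.97). The 14 points share 4 groups, so that any gene that differs between the groups in the same way scores high.

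For tests, the 14269 genes that averaged 1 RPKM or more in primary tumors were fitted together with limma on log2(RPKM + 1), with 1 value per mouse and Benjamini-Hochberg adjustment over all of them, and a gene with an adjusted p-value under 0.05 was called. Of the 8 members that had not been picked, 6 were tested; CD38 and NMNAT3 had lower means. The first question was what HNF4G-KO changes in primary tumors. Of all genes tested, 12.2% were called between HNF4G-KO and control tumors, 882 higher and 854 lower. Among the 6 tested members 1 was called, NNMT, and a count of 1 in 6 is near that background.

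NNMT, nicotinamide N-methyltransferase (chr11:114257787-114313536, plus strand), was at or below 0.0909 RPKM in every tumor and metastasis labeled HNF4G-KO without FOXA1-OE. It had 3.45, 3.42 and 19.99 RPKM in control tumors, from 573, 351 and 2878 reads. In the 4 tumors labeled HNF4G-KO it had 0.0778, 0.0117, 0.0559 and 0.0534 RPKM, from 12, 2, 10 and 10 reads. All 4 were far below all controls, and the difference was -2.83 (SE 0.45) on the log2(RPKM + 1) scale, with a limma adjusted p-value of 0.0031. Without control tumor 3, the highest, it was -2.08 (adjusted p = 0.0059), and NNMT was called under each of the 17 alternatives run for this comparison. The size depends on the pseudocount, with -5.42 at 0.1 and -7.15 in limma-voom on recovered reads. NNMT passed the RPKM filter only through control and FOXA1-OE tumors, and it was also called with no filter (adjusted p = 0.013).

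FOXA1-OE tumors had 3.00, 1.63 and 2.29 RPKM of NNMT, just below the lowest control. The difference of -1.19 (SE 0.48) was not called (adjusted p = 0.84), and without control tumor 3 it fell to -0.45. In HNF4G-KO + FOXA1-OE tumors NNMT was 0.146, 0.0701, 0.126, 1.57 and 0.239 RPKM. Tumor 4 stood apart from the others there, with 162 reads against at most 38, yet all 5 were below every control. The difference from control of -2.40 (SE 0.45) was called (adjusted p = 0.010; -1.65 without control tumor 3, adjusted p = 0.026), and it missed the threshold when only these 2 groups were fitted (adjusted p = 0.084). With no filter the adjusted p-value was 0.038, and without the 3 libraries high in MT-TC, tumor 4 among them, the difference was -2.73 (adjusted p = 0.0081). Against FOXA1-OE tumors NNMT differed by -1.20 (SE 0.45), with no overlap between the groups and an adjusted p-value of 0.12; limma-voom gave 0.032. Without those libraries it was -1.53 (adjusted p = 0.10).

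In the 6 metastases NNMT was between 0.0167 and 0.0909 RPKM, from 2 to 16 reads, and the highest of them was only 0.0131 RPKM above the highest HNF4G-KO tumor. Because stromal fibroblasts also express NNMT, the host stroma markers are given beside it. They summed to 207, 200 and 61.9 RPKM in control tumors 1 to 3, and to 54.9 to 76.8 RPKM in tumors labeled HNF4G-KO. With their mean as a covariate the NNMT difference between HNF4G-KO and control was -3.19 (adjusted p = 0.0023). HNF4G-KO metastases 1 and 2 had 80.6 and 435 RPKM of stroma markers, and 0.0909 and 0.0167 RPKM of NNMT. In bulk tumors, fewer cells of a type and less RNA per cell cannot be told apart. The part of host cells in NNMT was not tested.

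NAPRT, the first enzyme of the nicotinic acid route, ran from 21.0 to 207 RPKM in primary tumors. Control tumors had 73.2, 84.6 and 102 RPKM, and tumors labeled HNF4G-KO 58.9, 37.8, 34.8 and 45.0 RPKM, with no overlap. The difference of -0.97 (SE 0.46) was not called (adjusted p = 0.17), with the spread of all 4 groups in 1 fit. FOXA1-OE tumors had 94.9, 89.2 and 207 RPKM, and HNF4G-KO + FOXA1-OE tumors 58.4, 21.0, 38.8, 125 and 141 RPKM. The 3 highest primary tumors for NAPRT, FOXA1-OE tumor 3 and HNF4G-KO + FOXA1-OE tumors 4 and 5, are the 3 libraries high in MT-TC.

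With those libraries left out, an alternative added after the data were seen, more NAPRT differences were called. The difference between HNF4G-KO and control tumors stayed at -0.97, with an SE of 0.24 and an adjusted p-value of 0.012. HNF4G-KO + FOXA1-OE tumors then differed from control by -1.05 (adjusted p = 0.038) and from FOXA1-OE tumors by -1.15 (adjusted p = 0.037), where with all libraries the differences were -0.21 (adjusted p = 0.86) and -0.70 (adjusted p = 0.38). In that fit 34.9%, 13.8% and 13.7% of all genes were called in these 3 comparisons, more than with all libraries. Whether RNA quality in these libraries bears on NAPRT was not tested.

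NAMPT, the rate-limiting enzyme of nicotinamide salvage, was low in the same libraries. It had 4.08, 8.65 and 4.25 RPKM in FOXA1-OE tumor 3 and HNF4G-KO + FOXA1-OE tumors 4 and 5, and 9.23 to 21.8 RPKM in the other 12 primary tumors. The 10 host blood and immune markers summed to 76.4 RPKM in FOXA1-OE tumor 3 and 151 RPKM in HNF4G-KO + FOXA1-OE tumor 5, against 477 RPKM or more in every other library. Most of that sum was LYZ, lysozyme, at 57.4 and 142 RPKM in those 2 tumors, while PTPRC, which marks all white blood cells, was at most 0.331 RPKM in any library. Other markers of the list went both ways. In FOXA1-OE tumor 3, CD14 was 18.1 RPKM, the highest of all libraries, and CSF1R 0.162 RPKM, the lowest. In HNF4G-KO + FOXA1-OE tumor 5, CD68 was 1.01 RPKM, the highest of all libraries. The part of host cells in NAMPT was not tested. The ratio of NAPRT to NAMPT was 50.7, 14.4 and 33.3 in those 3 tumors and 1.67 in HNF4G-KO + FOXA1-OE tumor 2, the lowest of all libraries. By group, NAMPT was 11.4, 10.4 and 14.8 RPKM in controls and 12.3, 21.8, 20.6 and 15.0 RPKM in tumors labeled HNF4G-KO, which overlapped. The difference of 0.46 (SE 0.40) had an adjusted p-value of 0.45. In HNF4G-KO + FOXA1-OE against HNF4G-KO tumors NAMPT differed by -0.80 (SE 0.37, adjusted p = 0.24), and by -0.26 without the 3 libraries.

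**Figure D2:**
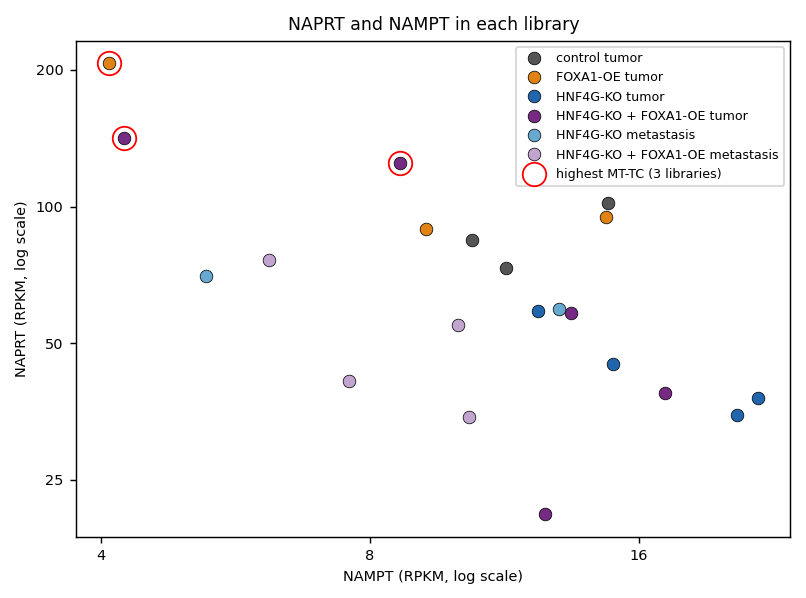
Each point is 1 library, with NAMPT on the horizontal and NAPRT on the vertical axis, both in RPKM on log scales; red rings mark the 3 primary tumors with the highest MT-TC. The ringed libraries lie at the top, with NAPRT of 125 RPKM or more and NAMPT of 8.65 RPKM or less.

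QPRT, which makes nicotinic acid mononucleotide from quinolinic acid, was 2.95, 4.40 and 5.85 RPKM in controls, 4.88, 4.42, 5.78 and 5.38 RPKM in tumors labeled HNF4G-KO and 3.25, 3.71 and 5.46 RPKM in FOXA1-OE tumors. These groups overlapped. HNF4G-KO + FOXA1-OE tumors had 15.7, 5.09, 6.32, 5.74 and 10.1 RPKM of QPRT, with tumors 1, 3 and 5 above every tumor of the other groups. Their difference from FOXA1-OE tumors was 0.92 (SE 0.29), with an adjusted p-value of 0.073 in a comparison where 7.86% of genes were called. It was called, with adjusted p-values between 0.019 and 0.049, in 4 of 17 alternatives: with host stroma as a covariate, without the mouse of tumors 2 and 3, without tumor 4, and without the 3 libraries high in MT-TC. From control tumors the difference of QPRT was 0.86 (SE 0.29, adjusted p = 0.12), and 1.00 without those libraries (adjusted p = 0.062).

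NADSYN1, NAD synthetase, ranged from 4.67 RPKM in a control to 9.13 RPKM in an HNF4G-KO + FOXA1-OE tumor, and its largest difference from control was 0.47 (SE 0.18, adjusted p = 0.16) in that group, or 0.35 without the libraries high in MT-TC. NMNAT1, the nuclear NMNAT enzyme, was 1.23, 1.52 and 1.24 RPKM in controls and 1.53 to 2.08 RPKM in HNF4G-KO + FOXA1-OE tumors, a difference of 0.28 (SE 0.13, adjusted p = 0.26), or 0.29 without them. NMNAT3, the mitochondrial one, was 0.368 to 1.24 RPKM in primary tumors, below the filter. The 3 NMNAT genes thus had different patterns: NMNAT2 was below NMNAT1 in every control and FOXA1-OE tumor, and above it in 6 of the 9 tumors labeled HNF4G-KO with or without FOXA1-OE.

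CD38, the other surface NAD hydrolase, was at most 0.214 RPKM in any library and listed at 0 in the spleen metastasis. With no RPKM filter its differences between groups of primary tumors were between -0.07 and 0.06 (lowest adjusted p = 0.57). For NMNAT3 fitted in the same way the largest in size was -0.28, in HNF4G-KO + FOXA1-OE against FOXA1-OE tumors (adjusted p = 0.34). In the tumors labeled HNF4G-KO, where BST1 was highest, its neighbor CD38 had at most 5.25% of the RPKM of BST1. Over all 8 members that had not been picked and 7 pairs of groups, 56 two-sided exact permutation tests of log2(RPKM + 1) gave 3 p-values under 0.05, each at 0.0286, the smallest that 4 mice against 3 or 4 allow, and the lowest adjusted value was 0.38. All 3 were for NNMT. Tests of FOXA1-OE against control tumors (3 mice against 3) could not fall below 0.1. Those of HNF4G-KO metastases against tumors (2 mice against 4) could not fall below 0.0667. A few values at 0.0286 cannot reach 0.05 after adjustment over 56 tests, so the lowest adjusted value decides nothing.

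The second question was what FOXA1-OE changes, with and without HNF4G-KO. Between FOXA1-OE and control tumors limma called none of the 14269 genes (0%), with 652 at an unadjusted p under 0.05, and limma-voom called none either. FOXA1 itself was not called here (difference 1.53, SE 0.48, limma adjusted p = 0.84), and FOXA1-OE tumor 3 had FOXA1 within the control range. Without the 3 libraries high in MT-TC, tumor 3 among them, 2 genes were called (0.014%). The absence of calls thus does not show that FOXA1 changes nothing. Between HNF4G-KO + FOXA1-OE and HNF4G-KO tumors 8 genes were called (0.0561%), and for the difference of the 2 FOXA1-OE effects 5 genes (0.035%). None of the 6 tested members was among them. For HNF4G-KO + FOXA1-OE against control, 4.7% of genes were called, and of the 6 members only NNMT. For NNMT the 2 FOXA1-OE effects had opposite signs, -1.19 without and 0.43 with HNF4G-KO (0.10 without the 3 libraries high in MT-TC), but the test of their difference of 1.62 (SE 0.64) gave an adjusted p-value of 0.49.

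Other genes of NAD metabolism were taken as 5 lists with 56 genes in all, of which 35 passed the filter in primary tumors: 4 of 10 genes of the kynurenine route, 8 of 13 of riboside use, transport and phosphorylation, 3 of 6 of breakdown, 6 of 7 sirtuins and 14 of 20 PARP and ART enzymes. In HNF4G-KO against control tumors 3 of the 35 rose and none fell, where 12.2% of all genes were called. All 3 are PARP family enzymes, which use NAD to modify proteins. The 14 of that list had a median difference of 0.40, against 0.01 over all genes tested. The medians of the other 4 lists ran from -0.08 for sirtuins to 0.38 for breakdown, with none called.

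TNKS2, a tankyrase that acts on telomere and Wnt pathway proteins, had 4.46 to 7.14 RPKM in controls and 11.6 to 15.6 RPKM in tumors labeled HNF4G-KO, a difference of 1.13 (SE 0.27, adjusted p = 0.019). Its relative TNKS went from 3.10 ± 0.406 to 4.94 ± 0.411 RPKM (SD, n = 3 and 4; difference 0.54, SE 0.16, adjusted p = 0.044). PARP14, an interferon-responsive enzyme, went from 12.1 ± 1.59 to 19.4 ± 1.04 RPKM (difference 0.64, SE 0.19, adjusted p = 0.044). For these 3 genes the groups did not overlap. The calls depend on which mice are in the fit: leaving out 1 mouse at a time left 0 or 1 of the 35 called, and TNKS2 lost its call without control tumor 2 or 3 or without HNF4G-KO tumor 2. Without the 3 libraries high in MT-TC, 11 of the 35 were called higher and 4 lower, with TNKS2, TNKS and PARP14 among the 11, in a fit that called 34.9% of all genes.

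Of the 35 genes, 2 were called between HNF4G-KO + FOXA1-OE and control tumors, where 4.7% of all genes were, and 3 against FOXA1-OE tumors, where 7.86% were; both counts are near the background. PARP12 was 17.2 ± 3.49 RPKM there (SD, n = 4 mice) against 10.2 ± 0.929 in controls (difference 0.68, SE 0.16, adjusted p = 0.026) and 11.2 ± 1.31 in FOXA1-OE tumors (difference 0.55, SE 0.16, adjusted p = 0.046). NT5E, the surface nucleotidase CD73 that can turn NMN into the riboside, fell from 62.3 ± 5.73 RPKM in controls to 35.8 ± 9.43 RPKM (difference -0.82, SE 0.21, adjusted p = 0.037). Against FOXA1-OE tumors, PARP6 differed by -0.77 (SE 0.15, adjusted p = 0.0089) and KYAT1, a kynurenine aminotransferase, by -0.77 (SE 0.19, adjusted p = 0.027). Without any 1 of the 3 controls or without HNF4G-KO + FOXA1-OE tumor 1, neither PARP12 nor NT5E was called against control, while PARP6 was called with any mouse of either group left out against FOXA1-OE tumors. Of 17 alternatives in that comparison PARP6 kept its call in 16, KYAT1 in 11 and PARP12 in 7. Without the 3 libraries high in MT-TC, 7 of the 35 were called higher and 3 lower against control, PARP12 (0.82) and NT5E (-0.64) among them. Against FOXA1-OE tumors 4 were then higher and 3 lower, with PARP12 at 0.75, PARP6 at -0.72 and KYAT1 at -0.93. None of the 35 was called in FOXA1-OE against control tumors, in HNF4G-KO + FOXA1-OE against HNF4G-KO tumors or for the difference of the FOXA1-OE effects.

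The last question was how metastases differ from primary tumors of the same label. For the fit with metastases 14099 genes were tested, and 6 were called for HNF4G-KO (0.0426%) and 1 for HNF4G-KO + FOXA1-OE (0.00709%), or 77 and 11 with the mouse as a block. None of the 5 members tested, which no longer included NNMT, and none of the 35 genes of the lists was called. HNF4G-KO stood for only 2 mice with metastases, and host stroma markers were 80.6 and 435 RPKM there.

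QPRT was the member with the largest difference. The HNF4G-KO metastases had 1.97 and 0.644 RPKM, both below all 4 tumors of that label, a difference of -1.46 (SE 0.41, adjusted p = 0.24, or 0.082 with the mouse as a block). In HNF4G-KO + FOXA1-OE metastases QPRT was 2.51, 5.42, 9.26 and 2.98 RPKM, a difference of -0.72 (SE 0.36, adjusted p = 0.53), or -0.87 without tumors 4 and 5. A tumor and a metastasis were sequenced from 4 mice, and QPRT was lower in the metastasis in 4 of 4. Within these mice it went from 4.42 to 1.97 RPKM, from 5.38 to 0.644, from 15.7 to 3.75 (the mean of 2 metastases on the log2 scale) and from 5.74 to 2.98. NAMPT and NADSYN1 were also lower in 4 of 4 metastases. For NAMPT the tumor values of 21.8, 15.0, 13.4 and 8.65 RPKM stood against 13.01, 5.25, 7.89 and 7.58 RPKM. For NADSYN1 no mouse differed by more than 0.18 on the log2 scale, and the smallest difference was -0.0034. Over all HNF4G-KO + FOXA1-OE mice the differences of NAMPT and NADSYN1 were -0.12 and -0.13, and 0.06 and 0.05 with fixed-sum scaling. Without tumors 4 and 5 they were -0.66 for NAMPT and 0.0039 for NADSYN1. NAPRT was higher in 3 of 4 metastases, and the exception was the mouse of tumor 4, 1 of the libraries high in MT-TC. With 4 mice a two-sided sign test cannot fall below 0.125, and limma called none of these. The share of all genes lower in 4 of 4 metastases was not worked out, so these counts have no background beside them. Over all genes tested, the median difference was -0.09 for HNF4G-KO and 0.05 for HNF4G-KO + FOXA1-OE.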

How the data were processed

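RNA-seq was run on 29 samples; 21 HPAF-II libraries were used and 8 KPC mouse samples were not. The deposited values are RPKM per gene, made by the authors with STAR 2.6.1a and featureCounts 2.0.4 per the labels; the authors' notes also name DESeq2. The notes name GRCh38 and the study's methods GRCh37, so coordinates are given from GENCODE v44 on GRCh38 by symbol. Whether host mouse reads were removed is not given in the sources used here. RPKM hide depth, but steps between low values gave back whole reads for at least 96.3% of the values tried (tolerance 0.01).

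Samples were grouped by their treatment and site labels, and mice by the animal number in the labels. Samples of 1 mouse and kind were averaged. Genes that averaged 1 RPKM or more were fitted with limma 3.58.1 (R 4.3.3) on log2(RPKM + 1), called at a Benjamini-Hochberg adjusted p under 0.05; the step was tested on simulated data. Because the deposited values are RPKM, the test of read numbers that the study's methods name was not run. Primary tumors of all 4 groups formed 1 fit, and tumors and metastases labeled HNF4G-KO another. Exact permutation tests of single genes used Python 3.11.15. Tumors and metastases that share an animal number are paired; their deviations from the group means correlated at -0.03 to 0.30 over 4 pairs. The labels do not say whether mice shared a batch.

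The 10 members and all lists were chosen with earlier results of these data known. Named genes were the members, list genes called in any comparison, the 3 genes most correlated with BST1 and with NMNAT2, and HNF4G and FOXA1. HNF4A, also checked, was 8.49 to 11.3 RPKM in control and 14.6 to 21.9 RPKM in HNF4G-KO tumors. Alternatives were another pseudocount (0.1), no filter, other scalings, only the groups compared, a host stroma covariate, replicate or mouse blocks, separate samples of a mouse, leaving out each replicate and, added after seeing the data, limma-voom on recovered reads and leaving out the 3 libraries highest in MT-TC.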

Additional observations from a re-analysis of the deposited data

Results flagged for a closer look

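Over the 20 combinations of a member and a group with at least 4 mice, 2 mice lay apart from the rest of their group. Chance alone gives about 1 in 20, a rate that applies only to members not picked for their changes. NMNAT2 was picked, so its case is given only as a description. The HNF4G-KO mouse of tumor 2 had the lowest NMNAT2, at 1.34 RPKM with the nearest at 1.97 RPKM. The HNF4G-KO + FOXA1-OE mouse of tumor 4 had the highest NNMT, at 1.57 RPKM with the nearest at 0.239 RPKM; its library is also the one highest in MT-TC. For BST1, every FOXA1-OE tumor lay above the controls, while with HNF4G-KO every tumor with FOXA1-OE lay below those without, and the 2 effects differed by -1.77 on the log2(RPKM + 1) scale. FOXA1-OE tumor 3 was among those above the controls, though its FOXA1 of 0.763 RPKM was within the control range. The difference of the BST1 effects was not tested, because BST1 was picked for its changes.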

How the results depend on the processing

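Over 8 comparisons and 146 alternative counts of members called, 137 equaled the counts reported or lay within 1.5 times of them and 9 did not. In HNF4G-KO against control tumors the count of 1 became 2 with only the groups compared and 2 without the 3 libraries highest in MT-TC, with NAPRT added to NNMT. In HNF4G-KO + FOXA1-OE against control tumors the count of 1 became 0 with only the groups compared, and 2 without those libraries, again with NAPRT. In HNF4G-KO + FOXA1-OE against FOXA1-OE tumors the count of 0 became 1 with the host stroma covariate (QPRT), 1 with limma-voom (NNMT) and 2 without the 3 libraries (NAPRT and QPRT); leaving out replicates gave 0 to 1, with QPRT called without the mouse of tumors 2 and 3 or without tumor 4. Of 276 differences of BST1 and NMNAT2 under alternatives, 11 had another sign than the value reported, in 5 of 16 comparisons of a gene, each with a reported difference of at most 0.15 in size. The 2 called NNMT differences kept their sign under the alternatives run. Fixed-sum scaling moved the median of all genes by 0.21 in HNF4G-KO against control tumors, -0.37 in HNF4G-KO + FOXA1-OE against HNF4G-KO tumors, -0.16 against control and -0.12 against FOXA1-OE tumors, and by -0.32 and 0.18 in the metastasis comparisons, where BST1 became -0.13 for HNF4G-KO. The number of all genes called moved more: 1736 in HNF4G-KO against control tumors became 691 to 5592 under other settings and 285 to 1168 with a replicate left out, lowest without control tumor 2. For HNF4G-KO + FOXA1-OE tumors, 670 against control became 114 to 1970 and 137 to 682, 1122 against FOXA1-OE became 91 to 1949 and 572 to 1437, and 8 against HNF4G-KO became 0 to 135 and 0 to 3. The 5 of the difference of FOXA1-OE effects became 0 to 112 and 0 to 6, and the metastasis counts of 6 and 1 reached at most 214 and 55.

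The replicate block by tumor number changed no count of members called, which stayed at 1 for HNF4G-KO against control tumors. The numbers do not pair the mice: same-numbered tumors correlated at -0.27 to 0.63 over 16 pairs, and 5 of 14 tumors correlated best with one of their own number. Groups of 2 to 4 mice limit the precision, genes near 1 RPKM are compressed by the pseudocount, and the NNMT values in tumors labeled HNF4G-KO rest on 2 to 12 reads.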
